A study of Mus musculus with 16 samples.

Results

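The serotonin receptor genes were examined in the prefrontal cortex of adult male mice that carried a heterozygous mutation of Arid1b and had been exposed to fluoxetine as pups. The set held 10 of the 18424 genes in the expression table. It was chosen by gene name, with earlier results of these data known, as Htr1a, Htr1b, Htr1f, Htr2a, Htr2c, Htr3a, Htr4, Htr5a, Htr6 and Htr7. All 10 genes passed the filter on low values in each comparison.

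Serotonin released in the cortex acts on a family of receptors that differ in how they signal. Receptors of the 5-HT1 and 5-HT5 types couple to inhibitory Gi/o proteins, those of the 5-HT2 type couple to Gq and phospholipase C, and the 5-HT4, 5-HT6 and 5-HT7 receptors couple to Gs and raise cyclic AMP, whereas the 5-HT3 receptor is a ligand-gated cation channel. Fluoxetine blocks the serotonin transporter and so raises the extracellular serotonin that reaches these receptors, which are known in the prefrontal cortex for tuning the excitability of pyramidal cells and interneurons. Arid1b encodes a DNA-binding subunit of the BAF (SWI/SNF) chromatin remodelling complex.

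RNA was sequenced from 16 mice of the C57BL/6N strain at postnatal day 120 (P120), with 4 mice in each of 4 groups. WT-Veh and WT-Flx mice were wild type, and HT-Veh and HT-Flx mice were heterozygous for a CRISPR deletion of exon 5 of Arid1b with an insertion of TT, present in every cell of the body, the study having bred them from Arid1b+/- sires and wild-type dams. In the Flx groups the dams drank fluoxetine hydrochloride (0.1 mg/ml) in water with 0.2% saccharin from P3 to P21, so that pups took the drug in through milk, and in the Veh groups the dams drank the saccharin water alone. All mice had plain water after weaning at P21, so that the cortex was sampled long after the drug had ended. The dose that reached each pup was not measured in the study, the treatment was given by litter, and the labels used here do not say which mice were littermates. P-values therefore measure the spread between these mice, whatever litters they came from.

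The values are normalized read counts per gene, as the authors computed them with DESeq2, and their sum per mouse was between 92.8% and 104% of the mean sum. Arid1b itself, at 1787, 2453, 2831 and 2401 in WT-Veh mice 1 to 4, was at 2005, 1753, 1802 and 1619 in the HT-Veh mice. It was at 1902, 2433, 2255 and 2047 in the WT-Flx mice and at 1669, 1661, 1671 and 1545 in the HT-Flx mice. Over both treatments the log2 difference of HT from WT mice was -0.39 (SE 0.080, limma adjusted p = 0.0969), with overlap between the vehicle groups in 1 WT mouse and none between the Flx groups. The value covers the whole gene, including exons outside the deletion.

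The labelled tissue carried its defining markers. Slc17a7, the vesicular glutamate transporter of cortical pyramidal cells, was between 32162 and 43463 in every mouse. Genes of the olfactory bulb, which lies just in front of this cortex, separated the mice: the 7 bulb markers summed to between 226 and 409 in 11 mice and to 10247 in WT-Veh mouse 1, 1876, 3370 and 7775 in WT-Flx mice 1, 2 and 4, and 2959 in HT-Veh mouse 4. These 5 libraries are called bulb-rich below, and the differences printed for receptor genes are also given without them where that moved the value by over 1.5 times. Of the 7 markers only Eomes was listed at 0 in any mouse, in 1 of the 16. Markers of striatal neurons also varied, with sums from 3337 in WT-Veh mouse 1 to 13741 in HT-Veh mouse 4. None of the marker genes tested passed an adjusted p of 0.05 in any of the 7 comparisons, although the 7 bulb markers all had an unadjusted limma p under 0.05 between HT-Flx and WT-Flx mice.

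The genes lie on separate chromosomes except for Htr1b and Htr3a, which are both on chromosome 9, and their structure differs widely in the GRCm38 annotation. Htr1a is a gene of 1 exon (chr13:105443639-105448122, plus strand). Htr2a spans 68.7 kb with up to 3 exons per transcript (chr14:74640840-74709494, plus strand), and Htr2c spans 235 kb with 7 annotated transcripts (chrX:146962513-147197277, plus strand). Htr7 (chr19:35958734-36057507, minus strand) has 6 annotated transcripts and Htr6 (chr4:139061108-139075570, minus strand) has 2. The values are sums over all exons and transcripts of a gene.

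To compare the receptors with each other, each value was divided by the exonic length of the gene, giving normalized read counts per kb. This length joins the exons of all annotated transcripts, whichever are expressed here, and the order and shares below depend on it. It was 9328 bases for Htr2c, with 7 annotated transcripts, and 4484 for Htr1a, with 1. Htr2a, the Gq-coupled 5-HT2A receptor and the target of classical hallucinogens, stood highest, at 215 ± 40.7 per kb (SD, n = 16 mice), above 67.3% of 16847 genes compared by mean level. Htr5a followed at 110.4 ± 11.5 per kb, then Htr1a at 96.4 ± 14.95 and Htr3a at 93.9 ± 15.7. In the middle of the order stood Htr7 at 73.9 ± 14.4 per kb, Htr1b at 71.5 ± 17.3, Htr6 at 49.3 ± 9.99 and Htr2c at 48.5 ± 14.5. Htr1f stood at 30.9 ± 8.42 per kb, and Htr4 came last at 3.87 ± 2.50 per kb, above 2.63% of genes.

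Only the first and the last steps of this order were wider than the spread between mice. Htr2a was above Htr5a in 16 of 16 mice without overlap of their ranges per kb, and Htr1f was above Htr4 in 16 of 16 mice, by 7.98 times on average. Every other pair of neighbours overlapped. Htr5a exceeded Htr1a in 11 of 16 mice, and Htr6 exceeded Htr2c in 9 of 16, so that the order within these pairs is not fixed by the data.

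**Figure D1:**
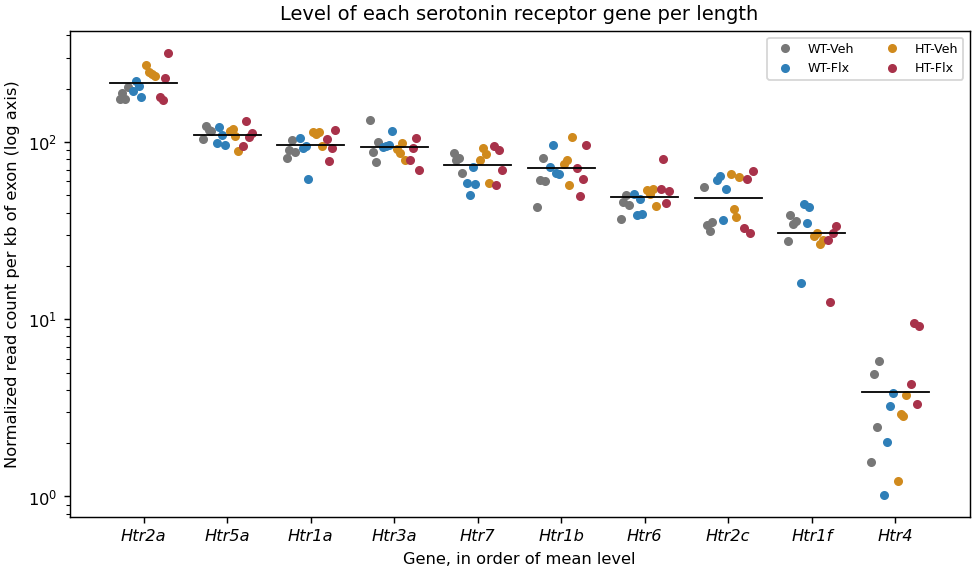
Normalized read count per kb of exon (log axis) for each of the 10 serotonin receptor genes, ordered by mean level, with 1 point per mouse coloured by group and a line at the mean of the 16 mice. Htr2a lies above all others and Htr4 below all others, while the 8 genes between them overlap their neighbours.

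By coupling class, the 4 Gi/o-coupled genes held 39.0% ± 2.61 (SD, n = 16) of the summed receptor level per kb, the Gq-coupled pair 33.0% ± 3.42, the 3 Gs-coupled genes 16.1% ± 2.44 and the channel subunit Htr3a 12.0% ± 2.51. The Gq-coupled share was 30.0% ± 1.91 (SD, n = 4) in WT-Veh mice, with a range of 27.4 to 31.8%, and 35.6% ± 2.15 in HT-Veh mice, with a range of 33.6 to 37.6%. These ranges did not overlap. The ranges of the other classes did overlap between WT-Veh and HT-Veh mice. They were 34.4 to 44.5% and 36.9 to 39.6% for the Gi/o-coupled share and 15.4 to 17.8% and 13.2 to 17.3% for the Gs-coupled share. For the channel subunit they were 10.2 to 17.9% and 9.81 to 11.9%. Over all mice Htr2a alone held 26.9% of the summed level and Htr2c 6.10%, so that the Gq-coupled share mostly repeats the values of Htr2a. Htr2c itself overlapped between the vehicle groups. In the treated mice the Gq-coupled share was 33.1% ± 1.24 for WT-Flx and 33.3% ± 5.22 for HT-Flx. Shares of a summed level depend on each other, and no test was run on them.

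The genes differed in how much they varied among mice of 1 group. The SD of log2(value + 1) within groups was 0.16 for Htr5a, the steadiest, and lay between 0.22 and 0.26 for Htr1a, Htr2a, Htr3a, Htr6 and Htr7. It was 0.35 for Htr1b, 0.45 for Htr2c, 0.48 for Htr1f and 0.74 for Htr4. The median of all genes tested was 0.22, so that Htr1b, Htr2c, Htr1f and Htr4 could be compared less precisely than most genes.

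**Figure D2:**
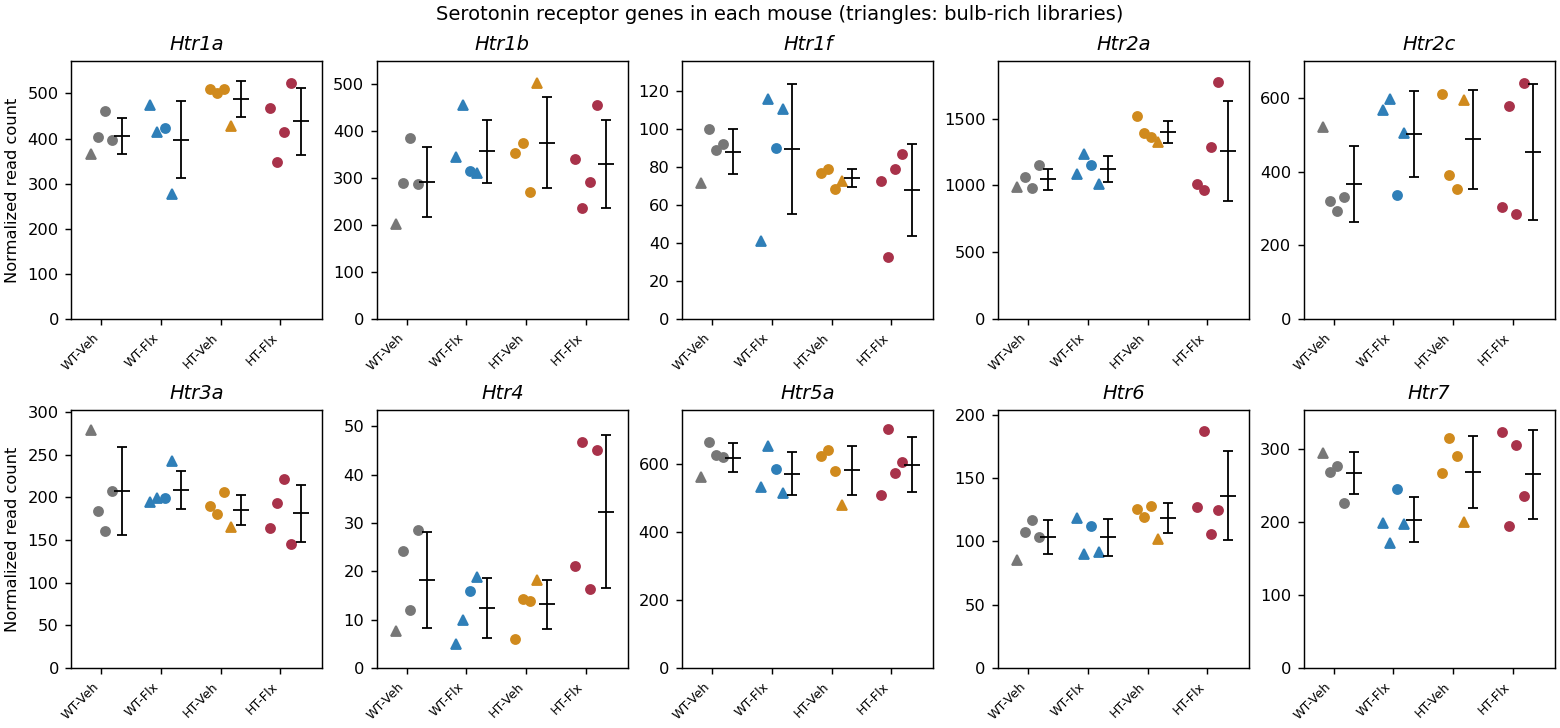
Normalized read count (linear axis from 0) of each serotonin receptor gene in each mouse by group, with the group mean and SD at the right of the points and triangles for the 5 bulb-rich libraries. For Htr2a the 4 HT-Veh mice lie above all 4 WT-Veh mice, and for Htr4 the points of 2 HT-Flx mice stand above all others.

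The comparison of HT-Veh with WT-Veh mice addresses what the Arid1b mutation alone does to adult receptor expression. No receptor gene passed a limma adjusted p of 0.05, against 0.0178% of 16832 genes tested. Unadjusted, 2 of the 10 had a p under 0.05, Htr2a and Htr1a, against 4.88% of all genes. Groups did not overlap for 1 of the 10, Htr2a, against 3.84% of all genes. The median difference of the 10 was 0.098 on the log2 scale and that of all genes was 0.0062. In these bulk samples, fewer cells that express a receptor and less RNA per cell cannot be told apart.

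Htr2a was at 984, 1065, 981 and 1150.3 in WT-Veh mice 1 to 4 and at 1519, 1392, 1359 and 1328 in HT-Veh mice 1 to 4. Every mutant mouse was above every wild-type mouse. The difference was 0.42 on the log2(value + 1) scale, which is 1.34-fold (SE 0.078, 95% interval 0.25 to 0.60), with an unadjusted limma p of 0.000289 and an adjusted p of 0.398. It ranked at place 12 among the 16832 genes. The difference was 0.42 without the bulb-rich libraries (adjusted p = 0.0849), between 0.38 and 0.47 when single mice were left out, and 0.41 with limma's sample quality weights. The last setting was the only one of those tried in which any receptor gene passed the threshold, with an adjusted p of 0.0498.

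Htr2c, which encodes the other Gq-coupled receptor and is best known from the choroid plexus and from appetite circuits, was at 522, 319, 294 and 332 in WT-Veh mice and at 613, 392, 352 and 595 in HT-Veh mice. The groups overlapped, since 1 WT-Veh mouse was above 2 mutants. Its difference was 0.41 (SE 0.23, limma adjusted p = 0.922), close in size to that of Htr2a with a wider standard error. Without the bulb-rich libraries it was 0.48 (SE 0.18, adjusted p = 0.367).

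The stretches just upstream of these 2 genes are shown because Htr2a had the smallest p of the 10 genes between mutant and wild-type vehicle mice and Htr2c encodes its Gq-coupled relative. Each run gives the 200 bases before the earlier of the GENCODE and RefSeq starts, on the plus strand of GRCm38.p6. The runs lie at chr14:74640640-74640839 for Htr2a and at chrX:146962313-146962512 for Htr2c. Capitals mark a match to the GC box letters GGGCGG on either strand.
Htr2a: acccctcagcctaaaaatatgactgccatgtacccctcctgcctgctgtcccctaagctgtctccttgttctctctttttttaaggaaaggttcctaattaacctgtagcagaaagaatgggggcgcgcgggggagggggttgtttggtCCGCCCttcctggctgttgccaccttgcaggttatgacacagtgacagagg
Htr2c: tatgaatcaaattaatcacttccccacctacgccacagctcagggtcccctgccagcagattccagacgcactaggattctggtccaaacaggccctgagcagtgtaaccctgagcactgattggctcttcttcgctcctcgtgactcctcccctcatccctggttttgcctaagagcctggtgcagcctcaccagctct

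The Htr2a window held 1 such match and the Htr2c window none, and 31.0% of the 32851 mouse promoter windows of this length held at least 1. Those windows were all set by the RefSeq start alone. Neither window held the TATA box letters TATAAA on either strand, which 9.96% of windows held. Neither held the cyclic AMP response letters TGACGT, found in 5.85% of windows, nor an E box (CANNTG), found in 58.2%. Each held 4 CG dinucleotides, against a median of 5 over all windows. These counts describe the letters only and say nothing about binding. Of the 10 genes, 8 had an entry in the promoter table, and Htr3a and Htr4 had none.

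Among the Gi/o-coupled genes, Htr1a encodes the 5-HT1A receptor, which serves as the autoreceptor on serotonergic cell bodies and as a postsynaptic receptor in cortex. It was at 366, 403, 460.3 and 396 in WT-Veh mice and at 510.3, 500.0, 510.5 and 428 in HT-Veh mice. The groups overlapped in 1 mouse on each side, and HT-Veh mouse 4, the lowest of its group, was a bulb-rich library. The difference was 0.26 (SE 0.10, limma adjusted p = 0.922), and 0.27 without the bulb-rich libraries (adjusted p = 0.307).

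For the other Gi/o-coupled genes the vehicle groups overlapped. Htr1b, a terminal autoreceptor, differed by 0.36 (95% interval -0.12 to 0.85), by 0.20 without WT-Veh mouse 1 and by 0.050 without the bulb-rich libraries. Htr1f, a target of migraine drugs, differed by -0.24 (-0.59 to 0.11). Htr5a, the steadiest gene, differed by -0.09 (-0.33 to 0.14), which bounds a difference between these groups more narrowly than for Htr1b or Htr1f, and by -0.052 without the bulb-rich libraries. The channel subunit Htr3a, known from interneurons of the upper layers, differed by -0.14 (-0.52 to 0.24). The sign turned without the bulb-rich libraries, to 0.068, and without WT-Veh mouse 1, to 0.014.

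Among Gs-coupled genes, Htr6 differed by 0.20, and by 0.11 without WT-Veh mouse 1. Htr4, at 28.6 or less in these mice, differed by -0.36 (SE 0.48), and by -0.26 with a pseudocount of 8. It differed by -0.87 without the bulb-rich libraries (limma adjusted p = 0.524) and by -0.69 to -0.06 when single mice were left out. The -0.87 was larger in size than the differences of Htr2a and Htr2c, but it rests on low values with a wide spread. Htr7 differed by less than 0.01 in size with all mice and by 0.18 without the bulb-rich libraries.

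The comparison of WT-Flx with WT-Veh mice addresses what early fluoxetine leaves behind in the adult cortex of wild-type mice. No receptor gene was called in it, nor was any of the 16833 genes (percent called 0). At an unadjusted limma p under 0.05 there was 1 of the 10, Htr7, against 4.2% of all genes. Groups overlapped for all 10, while they did not overlap for 2.89% of all genes.

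Htr7, whose Gs-coupled product is studied for its part in sleep and mood, was at 295, 269, 278 and 227 in WT-Veh mice and at 199, 171, 245 and 198 in WT-Flx mice. The treated mice were lower except for an overlap between WT-Flx mouse 3 and WT-Veh mouse 4. The difference in log2(value + 1) was -0.40 (SE 0.14, limma adjusted p = 1.00). WT-Flx mice 1, 2 and 4, with the lower values, were the bulb-rich libraries, while WT-Veh mouse 1, at 295, was the most bulb-rich of all. Without these libraries 1 WT-Flx mouse was left, and the difference was -0.066. With the bulb score as a covariate it was -0.40.

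Htr2c was at 569, 599, 338 and 506 in WT-Flx mice, and its difference from WT-Veh was 0.46 (SE 0.22, limma adjusted p = 1.00). The 3 high mice were again the bulb-rich ones, and the difference was 0.10 without the bulb-rich libraries. Across the whole study the 5 bulb-rich libraries had Htr2c values between 506 and 599. The 11 other libraries ranged from 286 to 642, and 3 of them, HT-Veh mouse 1 and HT-Flx mice 2 and 4, were at 613, 580.2 and 642 with bulb marker sums of 377, 354 and 281. Markers of the choroid plexus, a tissue with much Htr2c, summed to 126, 167 and 144 in these 3 mice. They summed to 364 in WT-Veh mouse 4, where Htr2c was at 332, and to between 114 and 187 in the other 12 mice. Such a sum does not show how single markers differ. The 4 choroid markers tested differed by -3.04 to 0.49 between HT-Veh and WT-Veh mice and by -2.43 to 0.38 between WT-Flx and WT-Veh mice. In each comparison 1 of the 4 had an unadjusted limma p under 0.05, against 4.88% and 4.2% of all genes. The part of bulb and choroid tissue in the Htr2c values was not tested.

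**Figure D3:**
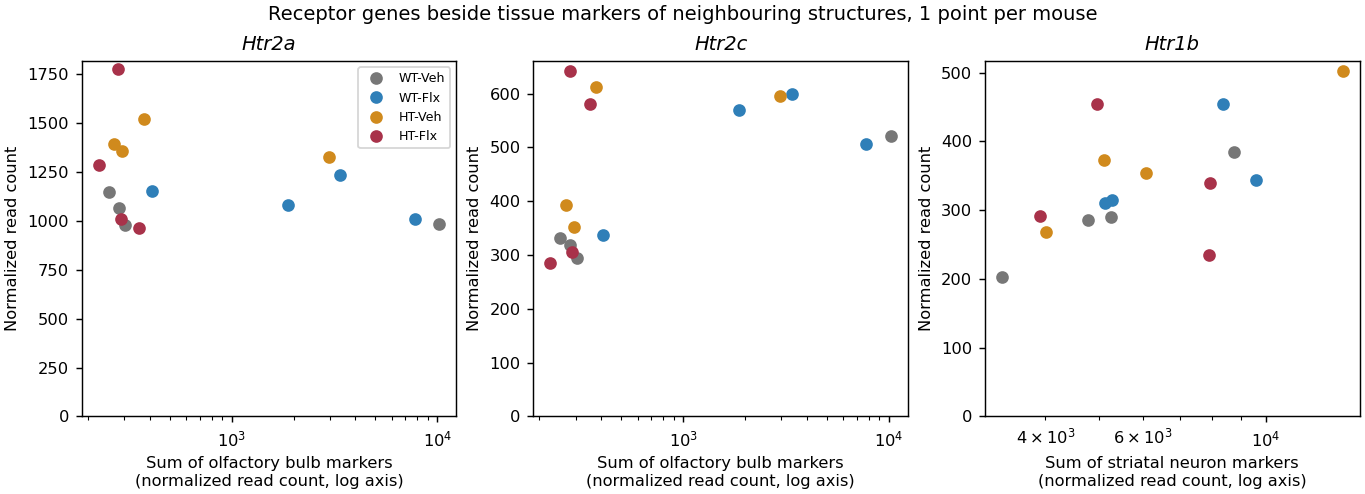
Normalized read count of Htr2a and Htr2c against the summed olfactory bulb markers, and of Htr1b against the summed striatal neuron markers (x axes logarithmic), with 1 point per mouse coloured by group. The 5 libraries with bulb sums of 1876 or more have Htr2c between 506 and 599. Among mice with low bulb sums, Htr2a of HT-Veh mice is above that of WT-Veh mice. At high bulb sums these 2 groups have 1 mouse each, HT-Veh mouse 4 (Htr2a 1328, bulb sum 2959) and WT-Veh mouse 1 (Htr2a 984, bulb sum 10247).

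The comparison of HT-Flx with HT-Veh mice asks the same of mutants. Here too no receptor gene and no other gene was called by limma (0 of 16814). Htr4 was the 1 receptor gene of 10 with an unadjusted p under 0.05, against 3.07% of all genes. Groups overlapped for all 10, against 1.99% of all genes without overlap.

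Htr4 encodes a Gs-coupled receptor that is scarce in this tissue. It was at 6.03, 14.3, 13.9 and 18.3 in HT-Veh mice and at 21.2, 46.7, 16.3 and 45.1 in HT-Flx mice. In treated mutants 3 of 4 mice were above every vehicle mutant, and 1 overlapped with them. The difference was 1.19 on the log2(value + 1) scale, which is 2.28-fold (SE 0.43, 95% interval 0.25 to 2.14, limma adjusted p = 1.00). At such low values the size of a fold depends on the pseudocount, and the difference was 0.88 with a pseudocount of 8.

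In wild-type mice Htr4 was at 7.72, 24.2, 12.0 and 28.6 under vehicle and at 5.03, 9.93, 15.9 and 18.8 after fluoxetine, a difference of -0.49 (SE 0.52). The interaction, that is the change with fluoxetine in HT mice minus that in WT mice, was 1.68 for Htr4 (SE 0.70, limma adjusted p = 0.998). It was the only receptor gene of the 10 with an unadjusted p under 0.05 in that test, against 4.29% of 17567 genes, and no gene of the table was called (percent called 0). Between HT-Flx and WT-Flx mice Htr4 differed by 1.31 (SE 0.47, adjusted p = 0.387). The 3 comparisons share the HT-Flx mice and are not independent. Without the bulb-rich libraries, which leave 1 WT-Flx mouse, the last difference was 0.84.

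HT-Flx mouse 4 stood apart for several receptors. It had the highest value of all 16 mice for Htr1a (523), Htr2a (1777) and Htr2c (642), and the 10 receptor genes summed to 4643 normalized read counts in it, against 3338 to 3580 in the other HT-Flx mice. Htr2a was at 1008, 965 and 1285 in those 3 mice. The difference in Htr2a between HT-Flx and HT-Veh mice was -0.20 (95% interval -0.54 to 0.15, limma adjusted p = 1.00), an interval that holds 0 and also a difference the size of that between HT-Veh and WT-Veh mice in the opposite direction. It was -0.38 without HT-Flx mouse 4 and -0.08 without HT-Flx mouse 2. The bulb marker sum of HT-Flx mouse 4 was 281, among the low ones.

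Between HT-Flx and WT-Flx mice no receptor gene was called, against 0.0417% of 16788 genes, and Htr4 was the 1 gene of 10 with an unadjusted limma p under 0.05, against 10.4%. None of the 10 was free of overlap, against 5.83% of all genes. Htr6 differed by 0.37 and Htr7 by 0.37. The groups also differed in bulb tissue, with bulb marker sums of 226 to 354 in the HT-Flx mice and 409 to 7775 in the WT-Flx mice, and its part in these differences was not tested. Without the bulb-rich libraries Htr6 differed by 0.25 and Htr7 by 0.084.

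**Figure D4:**
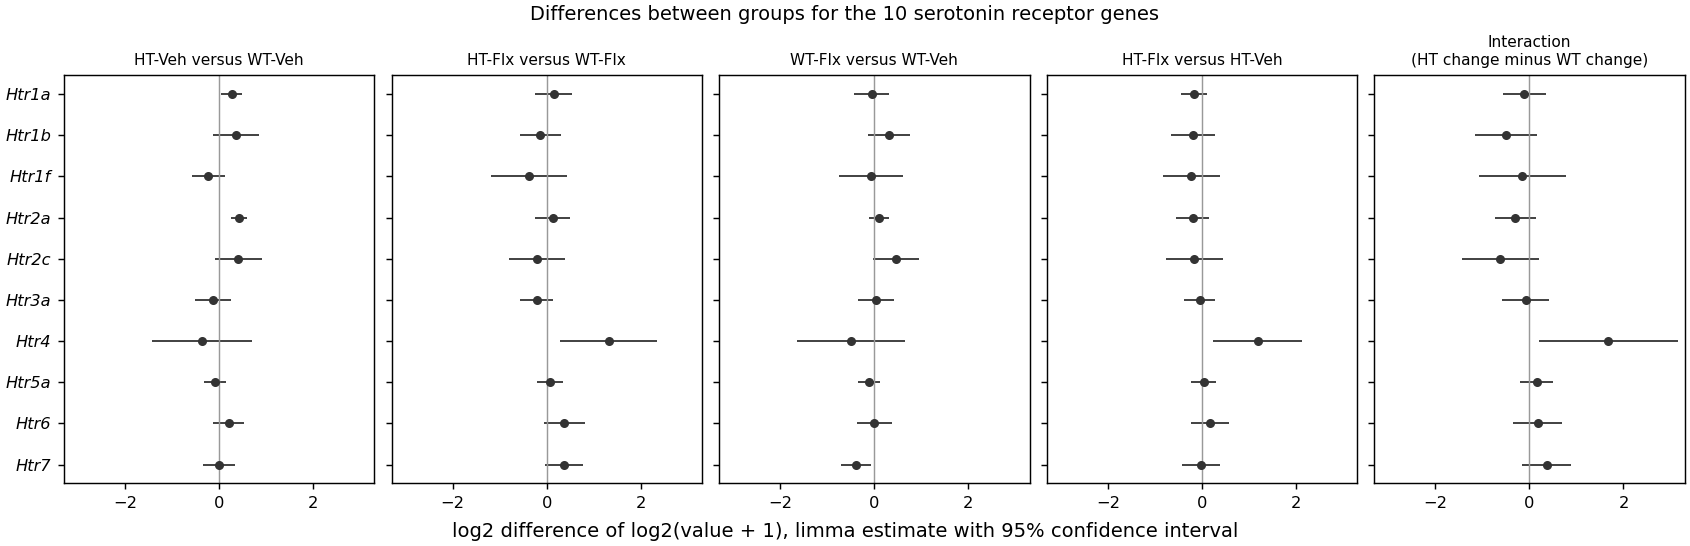
Difference of log2(value + 1) between groups for each receptor gene, with 95% confidence intervals from limma that are not adjusted for the number of genes, in the 4 pairwise comparisons and the interaction. Intervals that miss 0 are those of Htr1a and Htr2a for HT-Veh versus WT-Veh, Htr7 for WT-Flx versus WT-Veh, and Htr4 for the comparisons with HT-Flx mice and the interaction.

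Over both treatments, HT mice were compared with WT mice in 1 fit of 16 samples. No receptor gene was called, against 0.0398% of 17567 genes, and 2 of 10 had an unadjusted limma p under 0.05, Htr2a and Htr6, against 11.9%. Htr2a differed by 0.27 (SE 0.10, adjusted p = 0.380). Htr6, which encodes a Gs-coupled receptor found in striatum and cortex, was at 85.6, 107, 117 and 104 in WT-Veh mice and at 125, 119.7, 128 and 102 in HT-Veh mice. After fluoxetine it was at 119, 90.3, 112 and 91.7 in WT mice and at 127, 187, 106 and 125 in HT mice. The HT mice were higher on the whole, with overlap in both treatments, and the difference was 0.29 (SE 0.12, adjusted p = 0.391). It was 0.21 without the bulb-rich libraries, and 4 of these 5 libraries had Htr6 values of 102 or less.

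Over both genotypes, no receptor gene had an unadjusted limma p under 0.05 for fluoxetine, against 3.11% of genes, and none of 17567 genes was called (percent called 0). The differences of the 10 genes ranged from -0.21 for Htr7 to 0.35 for Htr4. Without the bulb-rich libraries that of Htr4 was 0.85 and that of Htr7 was -0.13, and leaving out single mice gave 0.15 to 0.57 for Htr4. For Htr5a the interval was -0.21 to 0.14 and for Htr3a -0.25 to 0.24.

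Htr1b, which showed no difference past an unadjusted p of 0.05, was at 203, 289.8, 385 and 286 in WT-Veh mice and at 344, 455, 315 and 311 in WT-Flx mice. In the mutants it was at 353, 373, 269 and 502 with vehicle and at 339, 235, 292 and 455 with fluoxetine. All 4 groups overlapped. The lowest and the highest of these values came from the mice with the lowest and the highest sum of striatal markers, WT-Veh mouse 1 and HT-Veh mouse 4. HT-Flx mouse 2, with a striatal sum of 7890, had the second lowest value, so that the order was not the same throughout. The part of striatal tissue in the Htr1b values was not tested.

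Htr3a ranged from 146 to 278 over all mice, Htr5a from 481 to 706, and Htr1f from 32.2 to 116. For each of these genes all groups overlapped, and no comparison had an unadjusted limma p under 0.05. The highest Htr3a value, 278, belonged to WT-Veh mouse 1, the most bulb-rich library.

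Within groups, some receptor genes varied together from mouse to mouse. Deviations from the group means, in log2(value + 1) over the 16 mice, correlated at r = -0.82 between Htr1b and Htr3a, the most negative value of any pair over all mice, and at the same r over the 11 mice that were not bulb-rich. Htr2c and Htr7 correlated at r = -0.67 (-0.78 over the 11 mice), and Htr1f and Htr6 at r = -0.65 (-0.86 over the 11 mice, where this pair was the most negative). The highest positive values over all mice were 0.52 for Htr5a with Htr6 and 0.50 for Htr2a with both Htr1a and Htr1f. Over the 11 mice the highest was 0.76 for Htr1a with Htr1f, a pair at 0.03 over all 16. For the 11 mice the deviations were still taken from the means of whole groups, bulb-rich mice included. The values over the 11 mice are therefore not free of the bulb-rich libraries and can hold differences between groups. Values of 1 mouse share its dissection and library, so that these figures are descriptions of the samples.

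Among 12540 genes with a mean of at least 100, the gene whose deviations were most like those of a receptor was Hs3st5 for Htr2c (Pearson r = 0.92 over 16 mice), Cap1 for Htr6 (0.93), Synj1 for Htr5a (0.91), AI593442 for Htr1a (0.90) and Asb3 for Htr2a (0.88). It was Mrps5 for Htr7 (0.89), Alms1 for Htr1f (0.89), Bcl10 for Htr3a (0.86), Exoc5 for Htr4 (0.85) and Tle4 for Htr1b (0.81). Tle4 is a marker of deep-layer cortical neurons. Next after Bcl10 for Htr3a came Nr2f2 (0.85), a transcription factor of interneurons from the caudal ganglionic eminence. With so many genes compared over 16 mice, high values arise for any gene, and nothing is read from them.

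The remaining receptor genes analysed were scarce. Htr1d, a close relative of Htr1b, averaged 21.6 normalized read counts (range 4.02 to 54.9) and Htr5b averaged 11.8 (range 2.68 to 36.1). Of these, 1 or 2 passed the filter, depending on the comparison, and none was called or had an unadjusted limma p under 0.05 in any comparison. Htr2b and Htr3b are not analysed here.

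Serotonergic cell bodies lie in the raphe nuclei of the brainstem, and the genes that make serotonin were low in this tissue. Tph2, the neuronal tryptophan hydroxylase, averaged 15.8 (range 6.56 to 27.7), and Tph1 ranged from 1.60 to 23.6. Ddc, the aromatic amino acid decarboxylase, averaged 120.1 and Gch1, which supplies the hydroxylase cofactor, 39.9. Ddc was between 78.6 and 119 in the 11 mice that were not bulb-rich and between 123 and 207 in the 5 bulb-rich ones. Gch1 averaged 35.6 and 49.3 in these 2 sets. The vesicular transporter Slc18a2 was between 0.914 and 11.0 in the 11 mice that were not bulb-rich and between 16.1 and 71.1 in the 5 bulb-rich ones. Slc6a4, the target of fluoxetine, is not analysed here.

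The genes of serotonin breakdown stood far higher. Per kb, Maob and Maoa, the monoamine oxidases, averaged 269 and 235, above Htr2a at 215. The low-affinity transporters Slc29a4 and Slc22a3 averaged 67.0 and 17.4 per kb. No gene of the synthesis, transport and breakdown list was called by limma in any comparison, and between 0 and 2 of its genes had an unadjusted p under 0.05. Between HT-Veh and WT-Veh mice, 2 of 7 tested had an unadjusted limma p under 0.05, both higher in HT-Veh, against 4.88% of all genes. Maob was between 648 and 730.4 in WT-Veh mice and between 786 and 821 in HT-Veh mice, without overlap, as for 3.84% of all genes (0.20, SE 0.071, adjusted p = 0.922). Slc22a3 differed by 0.63 (SE 0.21, adjusted p = 0.922). Tph2 was between 6.56 and 16.1 in WT-Flx mice and between 17.2 and 27.7 in WT-Veh mice, without overlap, as for 2.89% of all genes (-0.81, SE 0.36, limma adjusted p = 1.00). These values are near the filter limit of 10. Tph2 averaged 13.2 in the bulb-rich libraries, among them WT-Flx mice 1, 2 and 4, and 17.0 in the others. The part of bulb tissue in the Tph2 values was not tested.

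Downstream of the receptors, all 24 genes of the transduction list (G protein subunits, adenylyl cyclases, phospholipase C, GIRK channels, arrestins and the receptor partner S100a10) were tested, and none was called in any of the 7 comparisons. Between HT-Veh and WT-Veh mice none had an unadjusted limma p under 0.05. The smallest were those of S100a10, whose product binds the 5-HT1B and 5-HT4 receptors (-0.37, SE 0.17), and the adenylyl cyclase Adcy8 (-0.33, SE 0.16). Groups did not overlap for S100a10, as for 3.84% of all genes. WT-Veh mouse 1, the most bulb-rich library, had the highest value of all mice for both genes, at 649 and 840. Libraries that were not bulb-rich reached at most 427 and 533. Between WT-Flx and WT-Veh mice there was again none, the smallest being Gnai2 (0.18) and Gnao1 (0.16), which encode alpha subunits of Gi/o proteins. Gnai2 averaged 4330 in the bulb-rich libraries and 3750 in the others. Gnao1 averaged 21415 and 21472, with its lowest value, 17624, in WT-Veh mouse 1. The part of bulb tissue in the values of these genes was not tested.

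Between HT-Flx and HT-Veh mice 2 of the 24 had an unadjusted limma p under 0.05, against 3.07% of all genes, namely the GIRK channel genes Kcnj9 (0.20, SE 0.073) and Kcnj3 (-0.15, SE 0.066). They were also the 2 with the smallest p for the interaction, at 0.33 and -0.25. Kcnj9 averaged 4318 in the bulb-rich libraries and 5266 in the others, and Kcnj3 averaged 4361 and 4226. The part of bulb tissue in both was not tested. Between HT-Flx and WT-Flx mice 8 of the 24 had an unadjusted p under 0.05, against 10.4% of all genes, led by Adcy9 (0.72, SE 0.22, adjusted p = 0.344) and Itpr1, the receptor for inositol trisphosphate (0.46, SE 0.15, adjusted p = 0.355). For genotype over both treatments 8 of the 24 did so too, against 11.9%, led by Adcy8 (-0.42, SE 0.12, adjusted p = 0.269) and Adcy9 (0.58, SE 0.20). In the first of these comparisons 3 of 4 WT-Flx mice and no HT-Flx mouse were bulb-rich, in the second 4 of the 5 bulb-rich libraries were WT, and their part was not tested. For fluoxetine over both genotypes none of the 24 had an unadjusted p under 0.05, and the smallest were those of Gnao1 (0.10) and Gnai2 (0.089).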

How the data were processed

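RNA of 16 prefrontal cortex samples was sequenced from poly-A libraries. The authors estimated transcript levels by quasi-mapping in Salmon 1.1.0 on GRCm38, corrected for GC bias, and divided estimated counts by size factors in DESeq2 1.30.1. The deposited signal is this normalized read count. Because no value was a whole number, depth is unknown and no interval based on counts is given.

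Groups came from the sample titles, with 1 mouse per sample. Genes at 10 or more in at least 4 samples of a fit were tested in R 4.3.3 with limma 3.58.1 (trend) on log2(value + 1), with Benjamini-Hochberg adjustment over all genes and a threshold of 0.05. Pairwise fits used 2 groups, and the other 3 comparisons used 16 samples. A fold is on the log2(value + 1) scale. Exonic lengths came from GENCODE for GRCm38 and upstream sequences from RefSeq. The fits were tested on simulated data. Of simulated log2 differences of 0.5, 29% were called for HT-Veh versus WT-Veh, 75% for genotype over both treatments and 15% for the interaction. At a size of 1 these shares were 84%, 100% and 69%. Genes as scarce or as variable as Htr4 were not among those changed. A receptor difference near 0.5 could thus be missed. Genes with a mean of 100 or more entered the search for like patterns. Named were the 10 receptors, Arid1b, the serotonin metabolism genes and, in the transduction list, the 2 smallest p in each comparison. The receptor genes and the lists were chosen with earlier results of these data known. The alternatives were other pseudocounts, filters, scalings and weights, single mice left out, a replicate block, and the bulb score (mean log2 of the bulb markers) as a covariate or a limit of 2 above its lowest value.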

Additional observations from a re-analysis of the deposited data

Results flagged for a closer look

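Within single groups of 4 mice, 4 values lay far from the other 3 by Dixon's criterion. The groups examined numbered 44, of which chance alone gives about 2.2. Htr1a was at 428 in HT-Veh mouse 4, where the other HT-Veh mice were between 500.0 and 510.5. Htr2c was at 522 in WT-Veh mouse 1 and between 294 and 332 in the rest of that group. Htr3a was at 242 in WT-Flx mouse 4 and between 194 and 199 in the rest of its group. These 3 libraries were all bulb-rich, with bulb marker sums of 2959, 10247 and 7775, and the part of bulb tissue in these values was not tested. Arid1b was at 1545 in HT-Flx mouse 4 and between 1661 and 1671 in the other HT-Flx mice. No receptor gene passed the test of the genotype by fluoxetine interaction.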

How the results depend on the processing

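Of the 70 receptor differences (10 genes in 7 comparisons), 27 changed sign under at least 1 alternative, and none of the 8 with an unadjusted limma p under 0.05 did. No receptor gene was called under any alternative except with sample quality weights, where 1 was called between HT-Veh and WT-Veh mice (Htr2a, 0.41). The adjusted p of that difference ranged from 0.0498 to 0.999. Of the 27, 22 did so when single mice were left out, 12 without the bulb-rich libraries, 7 with quality weights, 7 with the bulb covariate and 2 with quantile normalization. In 4 of the 27 both the value with all mice and the opposite one exceeded 0.1 in size. These were Htr4 for genotype over both treatments (0.48 with all mice, -0.27 without the bulb-rich libraries, -0.062 with quality weights), Htr2c and Htr1a between HT-Flx and WT-Flx mice (-0.21 and 0.15, at 0.34 and -0.21 with the bulb covariate) and Htr1f in the interaction (-0.15, and 0.17 without HT-Flx mouse 2). Between HT-Veh and WT-Veh mice Htr3a turned to 0.068 without the bulb-rich libraries and 0.016 with quality weights (range without single mice -0.25 to 0.014), and Htr7 to 0.18, 0.10 and, with quantile normalization, 0.0070 (range without single mice -0.088 to 0.13). Htr1f between HT-Flx and HT-Veh mice was at 0.096 without HT-Flx mouse 2 (range without single mice -0.37 to 0.096). The causes were not tested. Arid1b passed the threshold for genotype over both treatments with quantile normalization (-0.41), quality weights (-0.46), the bulb covariate (-0.48), without the bulb-rich libraries (-0.46) and without WT-Veh mouse 1 (-0.45). Requiring a mean of 100 left Htr4 and Htr1f without a value in every comparison.

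Counts over all genes moved more. For HT-Veh versus WT-Veh the 3 genes called became 21 with the bulb covariate, 18 with quality weights, 11 without the bulb-rich libraries, 0 with all 4 groups in 1 fit and 0 to 2 when single mice were left out. For WT-Flx versus WT-Veh, 0 became 12 with quality weights, 9 without the bulb-rich libraries, 1 with the bulb covariate and up to 4 without single mice (WT-Veh mouse 1). For HT-Flx versus WT-Flx, 7 became 0 with the bulb covariate or a mean of 100, 2 without the bulb-rich libraries, 4 with a pseudocount of 0.1, quantile normalization or all 4 groups, 14 with quality weights and 23 without WT-Flx mouse 3, while leaving out WT-Flx mouse 1, 2 or 4 gave 0. For genotype over both treatments, 7 became 4 without the bulb-rich libraries, 23 with quality weights and 1 to 13 without single mice. The interaction gave 2 genes without the bulb-rich libraries. Removing them left 1 WT-Flx mouse, which was assumed to vary like the other groups.

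The replicate numbers belong to different mice, and the labels do not say whether a number marks a litter or a batch. Same-numbered mice deviated together (correlation over 0.1) in 1, 1, 3 and 1 of 4 pairs in the pairwise comparisons. In no comparison did every mouse correlate best with its own number (2 to 4 of 8 did). These values cannot tell whether same-numbered mice share a litter or batch. With the number as a replicate block, 0 receptor genes were called in each comparison, and the counts over all genes were 0 for HT-Veh versus WT-Veh, 5 for HT-Flx versus WT-Flx and 8 for genotype. Depth is unknown, and 4 mice a group limit the precision.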
